A study of Mus musculus with 146 samples.

Results

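The Notch pathway was followed through 9 genes in single germ cells of the newborn mouse ovary, namely the ligands Jag1 and Jag2, the receptors Notch1 and Notch2, the sugar transferase Lfng, the nuclear partners Rbpj and Maml1, and Hes1 and Hes6 of the HES family of transcription factors. All 9 symbols were present among the 52605 gene symbols of each library. Cells had been picked by hand from ovaries of C57/BL6J pups of 1 litter at age D0.5, without treatment. Smart-seq2 libraries were made from each, with ERCC RNA added as a spike-in. Per the published procedure, amplified cDNA positive for Foxl2, a pregranulosa gene, was removed before sequencing. The 146 libraries were 1 group. No label tied a cell to a pup, so all cells were treated as 1 sample and no test was made between them. A value is in TPM, a level per length of transcript scaled to the same total in each library, and a gene was called detected in a cell at 0.1 TPM or more. Cells below 1 TPM of the germ cell gene Ddx4 were left out.

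In Notch signalling, a ligand of the Jagged or Delta-like family on one cell binds a Notch receptor on a neighbouring cell. The receptor is then cut by ADAM10 and by gamma-secretase, and its inner part enters the nucleus, joins the DNA-binding protein RBPJ and a Mastermind-like coactivator and switches on targets such as genes of the Hes and Hey families. In the perinatal mouse ovary, signalling between germ cells and pregranulosa cells through this pathway is known to take part in cyst breakdown and follicle formation.

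Before any level was taken, libraries were compared with each other, and 7 pairs stood apart. In these pairs Pearson's r of log2(TPM + 1) was 0.989 to 0.996, whereas the highest r of any other pair of libraries was 0.844 and the median was 0.646. Chi-square per degree of freedom of the estimated counts was 1.66 to 4.58 in the 7 pairs and at least 255 in 100 other pairs drawn at random. The paired libraries thus differed by more than counting error alone, by up to 4.58 times its variance, and by far less than the other pairs compared. No label names them as repeats, and from this likeness each pair was taken as libraries of 1 cell, averaged and counted once. Of the distinct cells left after this, all but 1 passed the limit on Ddx4. The kept libraries held 4074810 to 26855273 reads on genes, with a median of 9498860. In every kept cell the summed TPM of 6 germ cell markers was at least 852.

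Cells were placed in 3 clusters rebuilt from the published steps with 20 feature genes, none of which is one of the 9 genes. The study also used 20, but its text on the clustering does not name Taf4b, which was added here. Clusters 1, 2 and 3 held 19, 87 and 32 kept cells, and all 7 cells with 2 libraries were in cluster 2. The published cluster sizes are not the same as these, and a difference from the study may come from the rebuilt clusters. Clusters are referred to by number, from high levels of meiotic genes such as Sycp2 in cluster 1 to oocyte genes in cluster 3, and cells were also ordered by rank along the first component of these feature genes. Since clusters and levels came from the same cells, a difference between clusters is a description. It was called higher or lower when the ratio of mean TPM + 1 was at least 1.5-fold, which is 0.58 on the log2 scale.

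Over the kept cells the mean level ran from 209.7 TPM for Hes1, through 121.9 for Hes6, 48.6 for Jag2, 13.98 for Rbpj, 13.6 for Jag1, 2.71 for Notch2 and 2.14 for Maml1, down to 0.27 for Notch1 and 0.02 for Lfng. Neighbours in that order were not separated in every cell. Hes6 was above Hes1 in 75 cells and below it in 60, although its mean was lower. Rbpj was above Jag1 in 81 cells and below it in 54, with medians of 9.15 and 2.47 TPM. Further down, Hes6 was below Jag2 in 31 cells, Jag2 below Rbpj in 29 and Jag1 below Notch2 in 48.

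**Figure D1:**
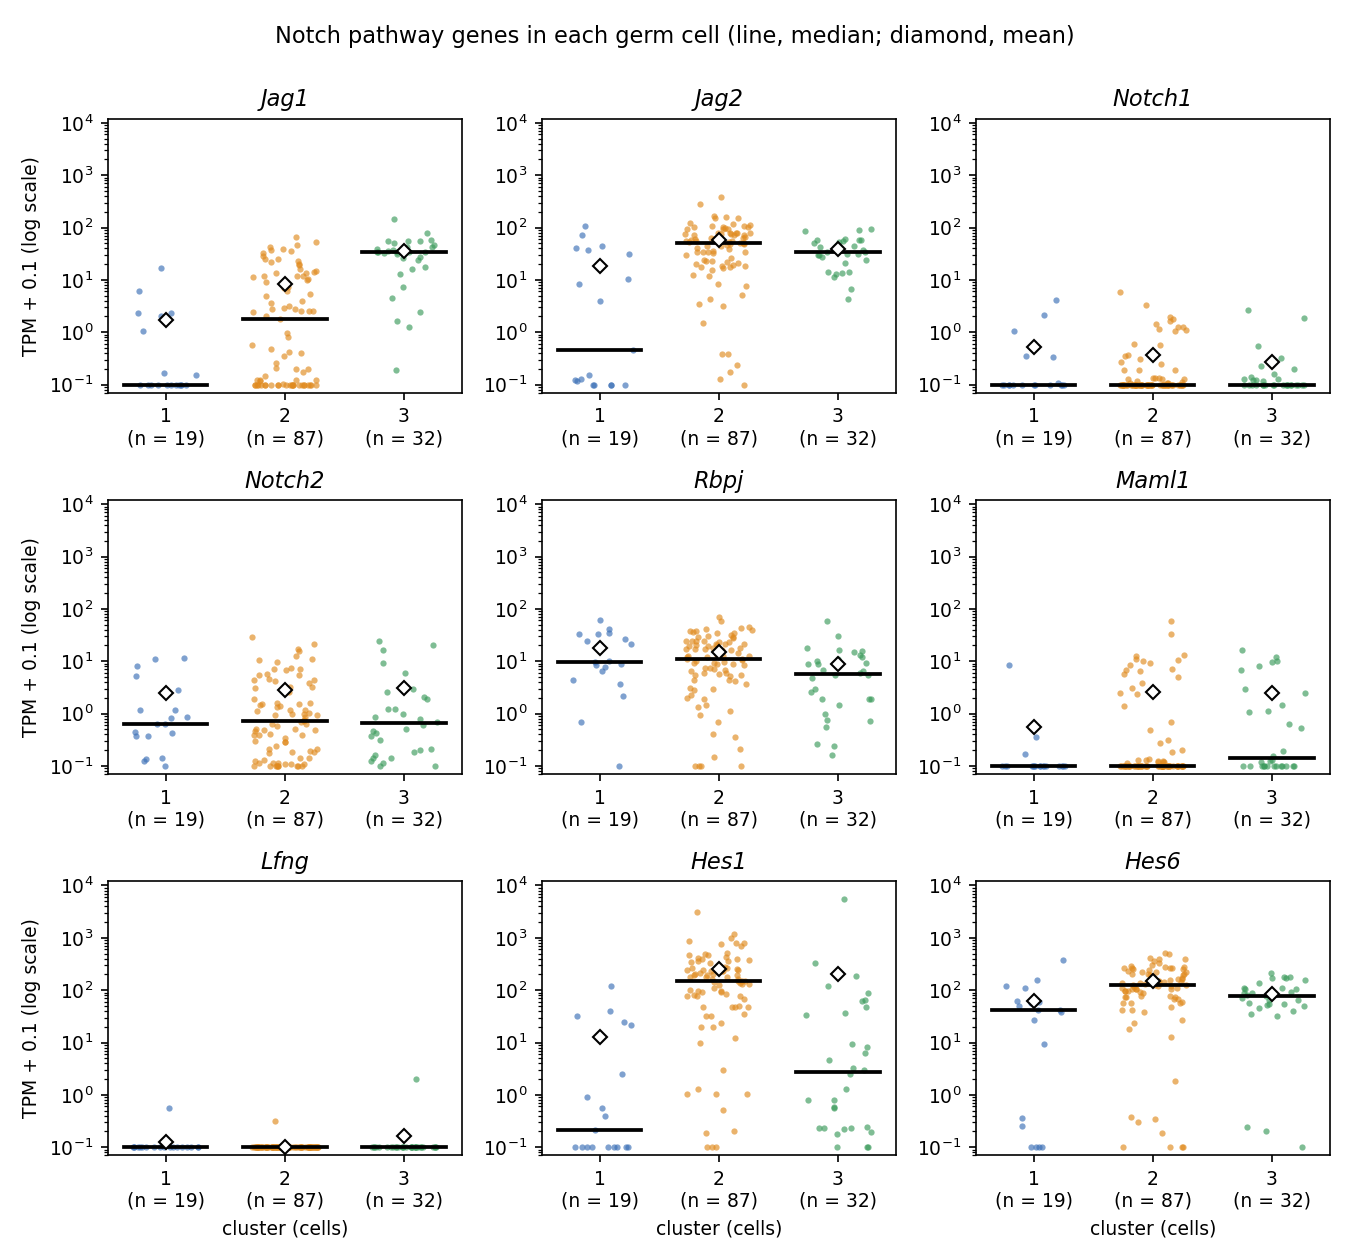
TPM + 0.1 on a log axis for each of the 9 genes in the kept germ cells, by cluster (19, 87 and 32 cells). Each point is 1 cell, the line is the median and the diamond the mean of the cluster. Jag1 has medians of 0, 1.69 and 33.8 TPM in clusters 1, 2 and 3, and for Hes1 in cluster 3 the mean of 208 TPM lies far above the median of 2.65.

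Jag1 differed most steadily between the clusters. From cluster 1 to 3 its mean was 1.59, 8.35 and 34.9 TPM, which made it 3.61-fold higher at the first step (log2 1.85) and 3.84-fold higher at the second (log2 1.94), with 1 TPM added to each mean. In cluster 1 the lowest, median and highest cells had 0, 0 and 16.6 TPM, in cluster 2 they had 0, 1.69 and 64.4 TPM and in cluster 3 the median was 33.8 and the highest 144.2 TPM. The clusters overlapped, but 24 of the 32 cells of cluster 3 and 15 of the 87 of cluster 2 lay above every cell of cluster 1. Detection went from 31.6% of cells (exact 95% interval 12.6 to 56.6%) through 60.9% (49.9 to 71.2%) to 96.9% (83.8 to 99.9%). These intervals cover counting error only. Leaving out any 1 cell gave log2 ratios of 1.75 to 2.41 for the first step and 1.79 to 2.04 for the second. In cluster 1, however, cell S100 alone held 54.9% of the summed TPM, and without it the mean was 0.76 TPM.

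Along the order of cells, Jag1 was sparse early and then present in nearly every cell. In 5 bins of 27 or 28 cells its mean was 2.01, 1.77, 6.30, 20.4 and 38.5 TPM, with 32.1, 28.6, 71.4, 96.3 and 100% of the cells detected. The second bin, in which 27 of 28 cells were of cluster 2, had a median of 0.01 TPM, and the fourth, in which 22 of 27 were, had a median of 13.7 TPM, so Jag1 also differed within cluster 2. Spearman's rho with the order was 0.75 over the kept cells, the largest of the 6 genes detected in at least 50% of cells. For Jag1 it was 0.13 with the reads on genes, 0.36 with the number of genes with a read and -0.25 with spike-in TPM.

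Jag2, the other Jagged ligand, was present earlier. The means were 18.5, 58.7 and 39.01 TPM, which was 3.06-fold higher in cluster 2 than in cluster 1 (log2 1.61) and just under 1.5-fold lower in cluster 3 than in cluster 2 (log2 -0.58). For the latter, leaving out any 1 cell gave -0.64, past 1.5-fold without cell S092, to -0.48. In reads scaled by the total without division by length (CPM), the means of Jag2 were 32.2, 148.0 and 126.7. Cells S066 and S118 were the highest of cluster 2. Their reads were assigned to short transcripts, with effective lengths of 748 and 1454 bases against a median of 3697 over libraries. The median cell had 0.36, 49.7 and 34.4 TPM, and the highest had 104.6, 383 and 94.2 TPM. In cluster 1, 10 of 19 cells reached 0.1 TPM and 7 had 10 TPM or more, and 11 cells of cluster 2 lay above its highest cell. In cluster 2, 74 of 87 cells and in cluster 3, 30 of 32 cells had 10 TPM or more. Over the 5 bins the mean of Jag2 was 25.3, 65.8, 58.5, 54.96 and 38.3 TPM. With 3 equal bins in place of clusters, the first step was below 1.5-fold (log2 0.47), as was the last bin over the first (log2 0.06).

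**Figure D2:**
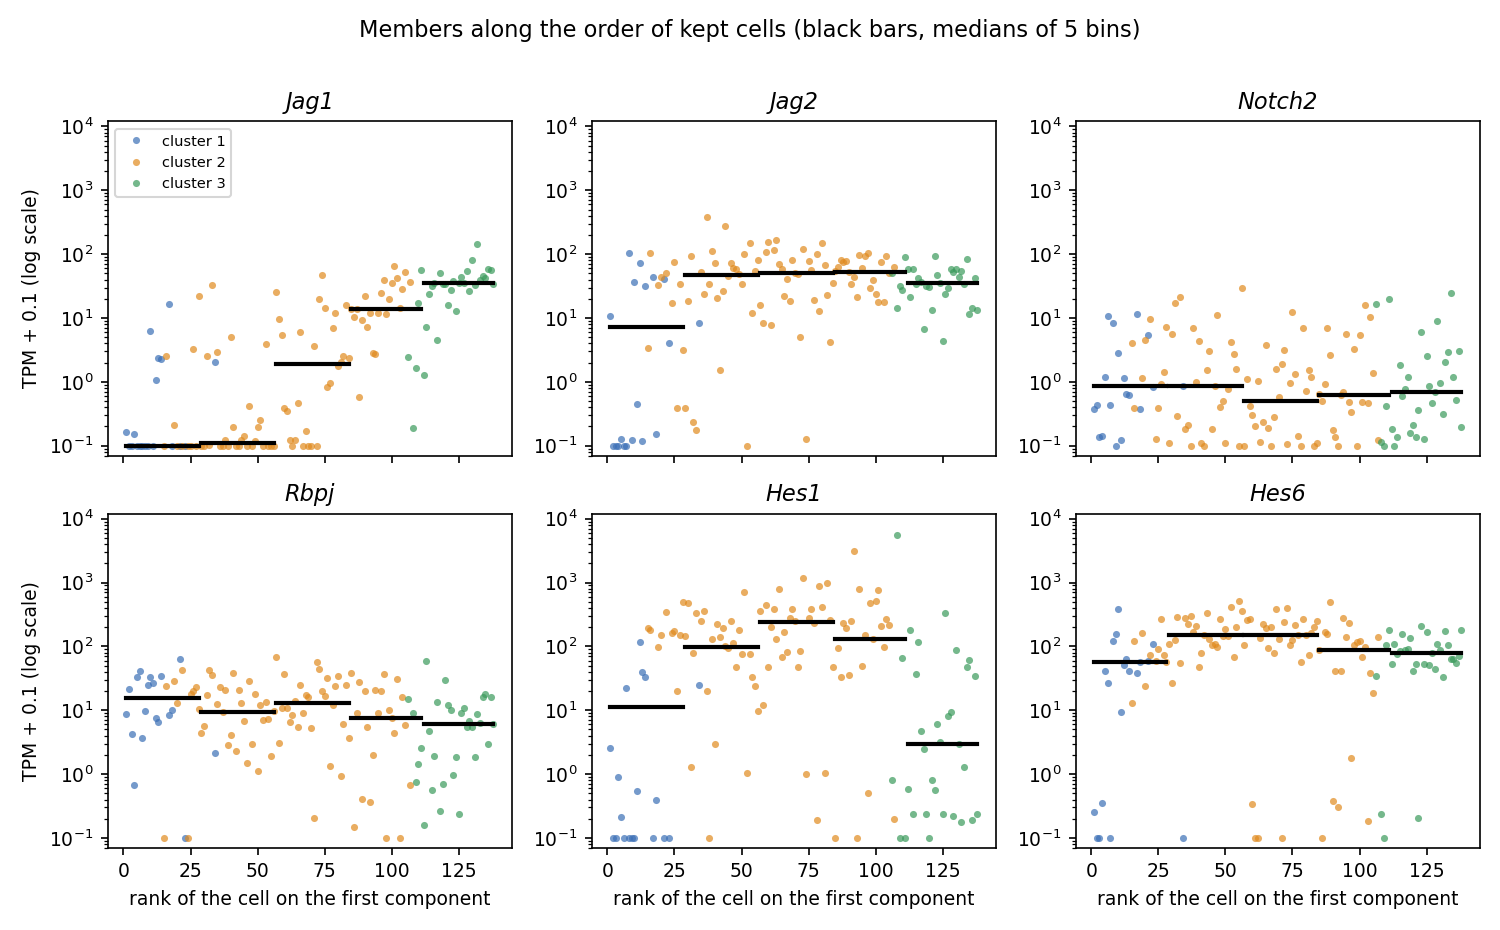
TPM + 0.1 on a log axis against the rank of the cell on the first component, for the 6 genes detected in at least 50% of the kept cells. Points are cells coloured by cluster and black bars are medians of 5 bins. Bin medians of Jag1 end at 34.7 TPM, whereas those of Hes1 run from 11.1 to 240 TPM and then to 2.89 TPM.

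Both ligands were detected in 87 cells, Jag2 without Jag1 in 39 and Jag1 without Jag2 in 3. Jag1 was the higher of the pair in 26 cells, Jag2 in the rest but 5 where both were equal. Levels of the ligands did not follow each other from cell to cell, with a Spearman's rho of 0.11 over cells that share 1 sample.

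The receptors were low in these cells at every point of the order. Notch2 had a mean of 2.33, 2.69 and 2.98 TPM in clusters 1, 2 and 3, a ratio below 1.5-fold at each step (log2 0.15 and 0.11). Its median was 0.54, 0.62 and 0.55 TPM and its highest cells had 11.3, 29.2 and 24.6 TPM, so the clusters overlapped almost fully. In cells S056 and S087, the highest of clusters 2 and 3, reads were assigned to short transcripts. Their effective lengths were 3439 and 2081 bases against a median of 9993 over libraries. Notch2 was detected in 73.9% of the kept cells (exact 95% interval 65.8 to 81.01%), but only 12 cells had 10 TPM or more. Spearman's rho of Notch2 with the order was -0.02.

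Notch1 was lower still. It was detected in 30 cells (21.7%, exact 95% interval 15.2 to 29.6%), and 13 cells had 1 TPM or more. Its mean was 0.43, 0.27 and 0.17 TPM in clusters 1, 2 and 3, and the median was 0 in each of them. The highest value was 5.67 TPM in cell S015 on 377 estimated reads, followed by 4.10 TPM in cell S103, and 6 cells held 50% of the summed TPM. The mean of cluster 1 rested on cell S103, which held 50.4% of it.

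Ligand and receptor could be read in the same germ cell. Jag2 and Notch2 were both detected in 93 cells, Jag1 and Notch2 in 69, Jag2 and Notch1 in 27 and Jag1 and Notch1 in 20. The separate shares of detected cells multiply to 93.1, 66.5, 27.4 and 19.6 cells for these pairs, so the counts are close to what the detection of each gene on its own gives. Notch2 was at a higher TPM than Jag2 in 15 cells and Jag2 in all others.

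Lfng, whose product lengthens the sugars on Notch receptors, was detected in 3 cells (2.17%, exact 95% interval 0.45 to 6.22%). The values were 1.95 TPM in cell S108 on 37 reads, 0.47 TPM in cell S051 on 3 reads and 0.21 TPM in cell S056 on 1 read. Each cluster had a single one of these cells, and cell S108 held 74.1% of the summed TPM.

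Rbpj, the DNA-binding partner, was found in nearly every germ cell. It was detected in 94.9% of cells and was lower in cluster 3. Its mean was 17.7, 15.1 and 8.62 TPM and its median 9.46, 10.8 and 5.65 TPM in clusters 1, 2 and 3. The highest cells had 62.5, 69.1 and 59.2 TPM, so the 3 ranges overlapped widely. The log2 ratio of cluster 3 over cluster 2 was -0.75, and leaving out any 1 cell gave -1.01 to -0.69. The highest cell, cell S028, also had the highest sum of pregranulosa markers in cluster 2, 50.8 TPM, whose part in the value was not tested. It had 69.1 TPM of Rbpj on 261 reads, since the reads were assigned to a short transcript with an effective length of 406 bases, against a median of 4637 over libraries.

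Maml1, a Mastermind-like coactivator, was detected in 40 cells (28.99%, exact 95% interval 21.6 to 37.3%) and its means were carried by a few cells. Means of 0.46, 2.44 and 2.34 TPM stood beside medians of 0, 0 and 0.04 TPM. Cell S070 held 96.3% of the summed TPM of cluster 1 and cell S053, with 59.6 TPM on 1294 reads, held 28.1% of that of cluster 2. The log2 ratio of cluster 2 over cluster 1 was 1.24. On the mean of log2 values it was 0.51, which is below 1.5-fold, and with clusters from variable genes 0.34. Detection, which no single cell carries, was 10.5, 27.6 and 43.8% of cells in clusters 1, 2 and 3, with wide exact 95% intervals of 1.30 to 33.1%, 18.5 to 38.2% and 26.4 to 62.3%.

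Hes1, the classical repressor downstream of Notch, showed the sharpest contrast between typical and mean levels. In clusters 1, 2 and 3 the median cell had 0.11, 152 and 2.65 TPM, and the mean was 12.7, 254 and 208 TPM. The lowest cells had no Hes1 in any cluster and the highest had 118.3, 3153 and 5639 TPM. In cluster 2, 53 of 87 cells had 100 TPM or more, against 1 of 19 cells in cluster 1 and 4 of 32 in cluster 3. Most cells of clusters 1 and 3 were thus low and most cells of cluster 2 were high, although the ranges overlapped.

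The mean of Hes1 in cluster 3 came from 1 cell. Cell S012 had 5639 TPM on 17342 reads and held 84.9% of the summed TPM of the cluster, and without it the mean was 32.4 TPM. The log2 ratio of cluster 3 over cluster 2 was accordingly -0.29 with cell S012, below 1.5-fold, and -2.93 without it. That of cluster 3 over cluster 1 was 3.92 with it and 1.28 without it. On the mean of log2(TPM + 1), cluster 3 was 3.65 below cluster 2. In cluster 2, cell S014 with 3153 TPM held 14.3% of the sum, and the log2 ratio of cluster 2 over cluster 1 was 4.21, with a range of 4.01 to 5.01 on leaving out any 1 cell. In both of these cells reads were assigned to short transcripts, with effective lengths of 465 bases in cell S012 and 555 in cell S014 against a median of 1069 bases. In CPM, reads scaled by the total without division by length, cell S012 had 2449 and held 11.7% of the sum over all cells, in place of 19.5% of the summed TPM, and the log2 ratio of cluster 3 over cluster 2 was -0.97.

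Along the order the median of Hes1 was 11.1, 97.2, 240, 128.3 and 2.89 TPM in the 5 bins. These medians went up and then down, and Spearman's rho with the order was -0.02. The last bin held cells of cluster 3 only, and its highest cell had 329 TPM.

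Hes6, a relative of Hes1, had the highest median of the 9 genes, 101.4 TPM. It was detected in 92.8% of cells. Its mean was 60.8, 148 and 86.1 TPM and its median 41.3, 127.8 and 78.6 TPM in clusters 1, 2 and 3. The highest cells had 379, 518 and 209 TPM, and no cell of cluster 3 was above the highest of cluster 1, so the clusters overlapped. It was 2.42-fold higher in cluster 2 than in cluster 1 (log2 1.27) and lower in cluster 3 than in cluster 2 (log2 -0.78), though not per spike-in RNA (0.33). With clusters from variable genes the first ratio was 0.35, and on the mean of log2 values the second was -0.53, both below 1.5-fold. In the 5 bins the mean was 74.9, 183, 160, 98.9 and 90.3 TPM. Cell S036 held 32.8% of the sum of cluster 1 and was also the cell with the highest sum of pregranulosa markers, 64.2 TPM, whose part in the value was not tested. Without it the mean of cluster 1 was 43.1 TPM.

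From cluster 1 to cluster 2, 5 of the 9 genes were higher (Jag1, Jag2, Maml1, Hes1 and Hes6), none was lower and 4 were below 1.5-fold. Among 11757 coding genes with a mean of at least 1 TPM, which include all of the 9 but Notch1 and Lfng, 25.4% were higher and 21.7% lower at that step. From cluster 2 to cluster 3, 1 gene was higher (Jag1), 2 were lower (Rbpj and Hes6) and 6 were below 1.5-fold, with 16% of coding genes higher and 30.9% lower. Between clusters 3 and 1, 4 were higher (Jag1, Jag2, Maml1 and Hes1) and 1 was lower (Rbpj), with 27% of coding genes higher and 36.5% lower. The median log2 ratio of the 9 genes was 1.24 at the first step and -0.12 at the second, beside 0.00 and -0.23 over all coding genes. The value of 1.24 is that of Maml1, the gene in the middle. The value of -0.12 is that of Notch1, which is not among these coding genes. Of the 7 genes that are, Hes1 was in the middle at the second step, at -0.29. The side of the median of all genes in TPM thus depended on counting Notch1 and Lfng. Per spike-in RNA the median of the 9 genes at the second step was 0.33, beside 0.63 over all coding genes, so it lay below on that scale.

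TPM are shares of the RNA of a cell, and dividing by spike-in TPM moved the whole second step. The median log2 ratio of all coding genes from cluster 2 to cluster 3 was 0.63 per spike-in and -0.23 in TPM. Per spike-in, Rbpj and Hes6 were therefore not lower in cluster 3, with log2 ratios of 0.18 and 0.33, while Notch2 (0.77) and Maml1 (1.11) passed 1.5-fold and Jag2 (0.37) did not. On that scale 52.2% of coding genes were higher and 8.91% lower at this step, and relative to the median gene Notch2 was at 0.14 and Maml1 at 0.48, both below 1.5-fold. Between clusters 3 and 1, Rbpj was at -0.32 per spike-in, below 1.5-fold. Relative to the median of all genes, Rbpj was at -0.52 in TPM and -0.45 per spike-in, and Hes6 at -0.55 and -0.30, so both lay below the median gene on either scale. Jag1 was higher on either scale, at 2.17 and 2.21 relative to the median gene, and the first step of Hes1 was 4.21 and 4.25. For Hes1 at the second step the relative value was -0.06 in TPM and -1.05 per spike-in.

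**Figure D3:**
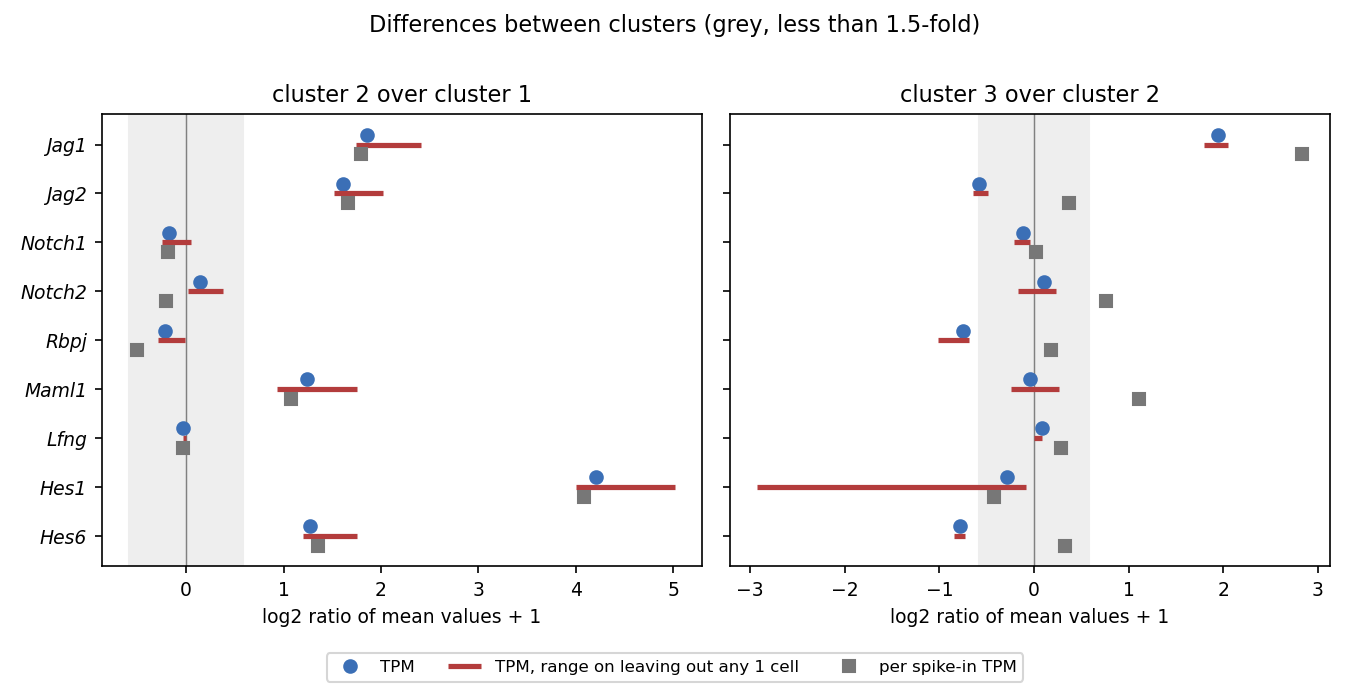
Log2 ratios of mean TPM + 1 for the 9 genes from cluster 1 to 2 (left) and from cluster 2 to 3 (right). Blue circles are TPM, red lines the range on leaving out any 1 cell, grey squares values per spike-in, and the grey band marks less than 1.5-fold. The red line of Hes1 on the right runs from -2.93 to -0.08, whereas that of Jag1 runs from 1.79 to 2.04.

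Some means were thus carried by few cells and others were not. The highest cell held 74.1% of the summed TPM of Lfng, 20.1% of Maml1, 19.5% of Hes1 and 15.4% of Notch1. For the other 5 genes it held 3.08% (Hes6) to 7.80% (Notch2). Among the 11757 coding genes the median was 6.41%, and 31.4% of them had at least 10% and 19.1% at least 15% in their highest cell. To reach 50% of the sum took 1 cell for Lfng, 6 for Notch1, 7 for Maml1, 9 for Hes1, 11 for Notch2, 17 for Jag1, 25 for Rbpj, 28 for Jag2 and 30 for Hes6.

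**Figure D4:**
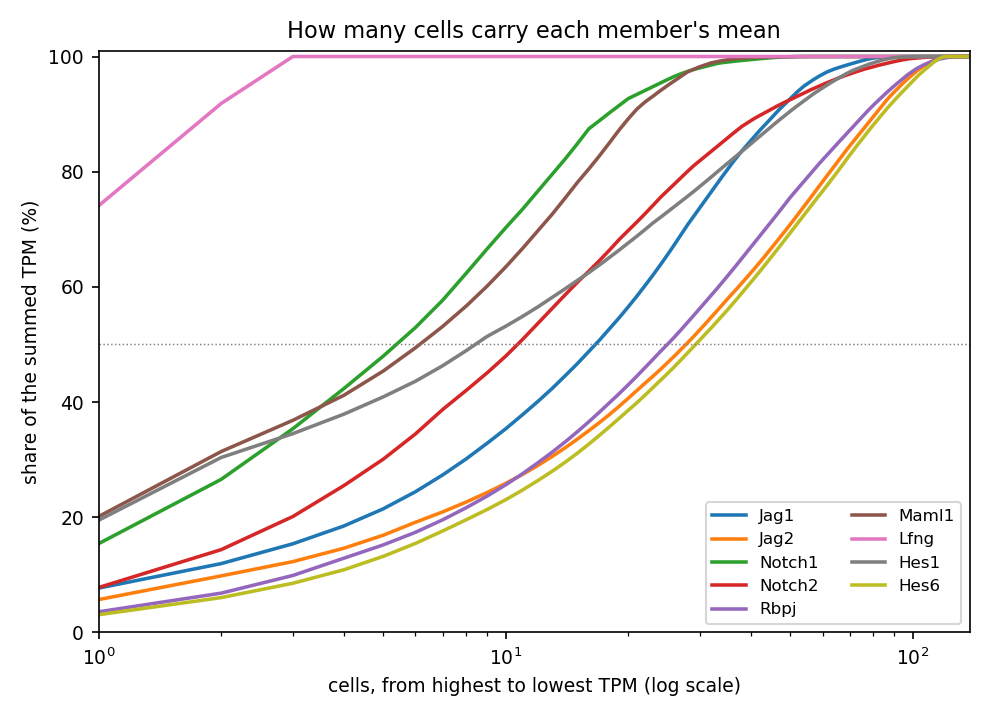
Share of the summed TPM, in percent, held by the cells with the highest values, against the number of cells on a log axis, for each of the 9 genes. Lfng reaches 100% with 3 cells, Notch1 and Maml1 pass 50% (dotted line) with 6 and 7 cells, and Hes6 needs 30 cells.

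If the 7 pairs are repeats of a cell, they give a technical error of these levels. The median difference between the libraries of a cell was 0.05 on the log2(TPM + 1) scale for Jag1, 0.08 for Hes1, 0.05 for Hes6, 0.14 for Jag2, 0.07 for Notch2 and 0.12 for Rbpj. Over the cells of cluster 2 the standard deviation on the same scale was 1.98 for Jag1, 2.70 for Hes1, 2.31 for Hes6, 1.89 for Jag2, 1.27 for Notch2 and 1.60 for Rbpj. Hes1, for example, was at 145.2 and 158 TPM in the libraries of cell S045 and at 345 and 327 TPM in those of cell S058. Hes6 had no read in either library of cell S123. The largest difference, 0.73, was that of Rbpj in cell S058, with 44.1 and 26.2 TPM. For each of the 6 genes given, the largest difference, 0.17 (Hes6) to 0.73 (Rbpj), lay below the standard deviation over cells of cluster 2. The 2 measures are not of the same kind. The medians also count pairs without the gene, and Jag1 was detected in both libraries of 4 of the 7 pairs. Steps that the paired libraries share are not part of this error.

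**Figure D5:**
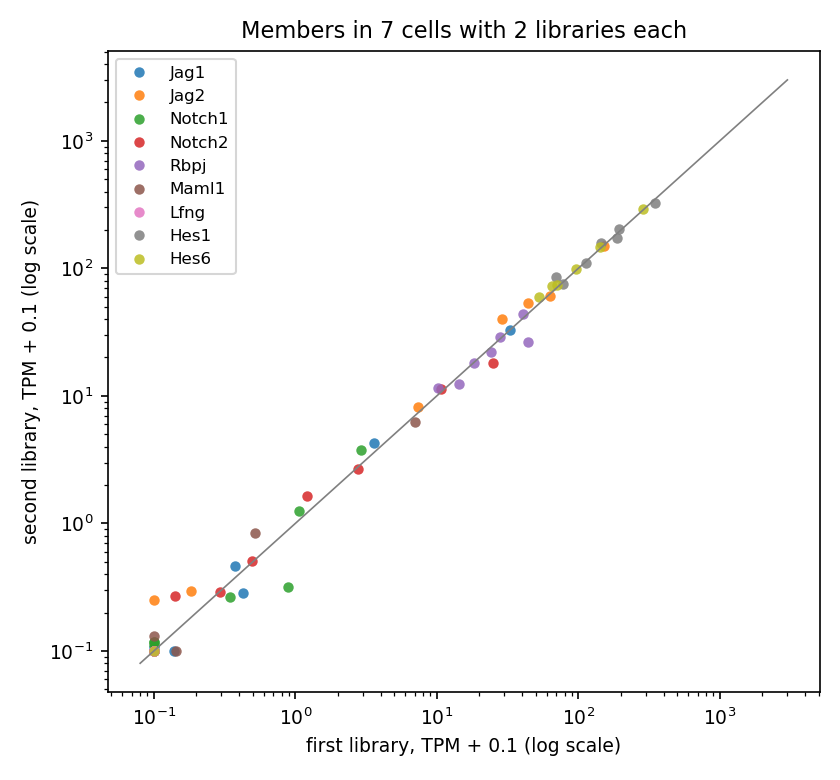
TPM + 0.1 of the 9 genes in the first and second library of the 7 cells with 2 libraries, on log axes, with the line of equal values. Hes1 and Hes6, where read, lie near the line from 52.4 to 345 TPM, with the largest gap for Hes1 in cell S046, 0.28 on the log2(TPM + 1) scale. Notch1 in cell S123, with 0.79 and 0.22 TPM on 15 and 9 reads, Rbpj in cell S058, with 44.1 and 26.2 TPM, Jag2 in cell S045, with 28.6 and 40.1 TPM, and Notch2 in cell S058, with 24.9 and 18.2 TPM, lie farther off.

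RNA of other cell types was looked for by marker lists. The blood list of 4 globin genes and the leukocyte gene Ptprc summed to 10 TPM or more in 74.6% of the kept cells, with a median of 49.1 TPM and up to 324516 TPM in cell S126 of cluster 1. The summed TPM of 9 pregranulosa markers had a median of 0.29 and a highest value of 64.2, and it was 10 or more in 8 cells. These were 4 of the 19 cells of cluster 1, 4 of the 87 of cluster 2 and 0 of the 32 of cluster 3. Of the pregranulosa markers Foxl2, the gene screened for before sequencing, was detected in 4 cells and Amhr2 in 4. Detection was wider for Wt1, in 40 cells, and for Gata4, in 23 cells. Stroma markers summed to 10 TPM or more in 13 cells (4, 7 and 2 in clusters 1, 2 and 3) and endothelial markers in 41. Of the latter list Pecam1, which germ cells also make, reached 10 TPM in 36 cells, and the other 4 markers together in 4 cells. Pregranulosa and stroma markers were both under 10 TPM in 120 cells, 13 of cluster 1, 77 of cluster 2 and 30 of cluster 3. In these 120 cells the mean was 14.03 TPM for Jag1, 2.92 for Notch2 and 216 for Hes1. In the other 18 cells it was 10.5, 1.31 and 166 TPM. The mean of Notch1 was 0.23 TPM in these 120 cells and 0.53 in the other 18 and that of Lfng 0.002 and 0.13 TPM, and the part of the markers in these values was not tested. Among cells with less than 10000 TPM of these blood markers, Jag2 was lower in cluster 3 than in cluster 2 (log2 -0.69), and no other gene moved across 1.5-fold between any of the clusters.

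For the 6 genes detected in at least 50% of cells, the 3 coding genes most like each in level were found by Spearman's rho over the kept cells among 8376 genes. Jag1 was most like Ldhb, a subunit of lactate dehydrogenase (0.77), Tmsb10, which binds actin (0.75), and Ift43 of intraflagellar transport (0.73). In all, 1.71% of the genes compared were above 0.5 with Jag1 and none was for the other 5. Hes1 was nearest to Adad2 (0.46), the oocyte transcription factor gene Lhx8 (0.46) and Rasd2 (0.45), and Hes6 to Apoc2 (0.45), Ddah1 (0.45) and Josd2 (0.44). Lhx8 is one of the feature genes that set the order. Jag2 was nearest to Kdm1b, a histone demethylase of oocytes (0.47), followed by Wnk2 and Cers6 (both 0.42). Rbpj was nearest to Dazl (0.37), Apex1 (0.37) and Ncbp1 (0.36), and Notch2 to Spire1 (0.40), Ogdhl (0.37) and Fanci (0.35). Among the 6 genes themselves rho lay between -0.10 and 0.19, the latter for Jag2 and Hes6. Within clusters 1, 2 and 3 the rho of Ldhb with Jag1 was 0.06, 0.69 and 0.72 and that of Tmsb10 0.22, 0.66 and 0.19. For Lhx8 with Hes1 it was 0.40, 0.06 and -0.10. Such values are across cells of 1 sample, which also share library depth and composition.

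Of the other pathway genes, a list of 60 was present in the files and 47 had a mean of at least 1 TPM. At the first step 15 of these 47 were higher and 7 lower, and at the second 7 were higher and 18 lower, with median log2 ratios of 0.26 and -0.25. Over all coding genes the medians were 0.00 and -0.23 and the shares those given above, so the median of the list at the second step lay close to that of all genes. Per spike-in the counts differed, with 9 higher and 14 lower at the first step and 21 higher and 3 lower at the second, beside 20.2 and 29.2% and then 52.2 and 8.91% of all coding genes. The median of the list on that scale was 0.12 at the first step and 0.52 at the second, beside -0.17 and 0.63 over all genes. Counts of higher and lower genes in the groups below are in TPM unless the spike-in scale is named, and the direction of many turned with the scale.

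Among ligands and relatives, Dlk1, an atypical ligand without the domain that activates the receptor, was at a mean of 6.39, 38.2 and 16.6 TPM from cluster 1 to 3, and Dll3 had 5.21, 3.49 and 11.6 TPM. The receptors Notch3 and Notch4 were detected in 5.80 and 2.90% of cells. Of the genes that modify the receptor on its way to the surface, Furin, the protease that cuts it first, had 5.58, 23.4 and 20.0 TPM, Poglut1 had 15.6, 12.8 and 6.24 TPM, and Rfng, a relative of Lfng, had 16.6, 23.4 and 20.9 TPM. The median of Rfng was 1.89, 8.03 and 18.9 TPM, so at the second step it went up while the mean did not. Single cells carried much of the Furin means, with 32.6% of the sum of cluster 2 in cell S017 and 56.8% of that of cluster 3 in cell S010, without which the means were 15.99 and 8.93 TPM. The medians of Furin were 2.10, 3.20 and 5.83 TPM. For cluster 3 over 2 its log2 ratio was -0.22, with -1.30 without cell S010 and 0.31 without cell S017. Mib2, which helps the cell take up bound ligand, had 25.7, 31.2 and 17.6 TPM.

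Genes of receptor cleavage were well represented, with 8 of 8 at a mean of 1 TPM or more. At the first step 4 were higher and 1 lower, beside 25.4 and 21.7% of all coding genes. At the second step 2 were higher and 1 lower, beside 16 and 30.9%. Per spike-in, 2 were higher and 1 lower at the first step, beside 20.2 and 29.2% of all coding genes. On that scale 6 were higher and 0 lower at the second step, beside 52.2 and 8.91%. Psenen, a subunit of gamma-secretase, had 183, 320 and 449 TPM, and Psen2, a catalytic subunit, had 9.68, 24.9 and 60.7 TPM. Cell S036 held 54.8% of the Psen2 sum of cluster 1, where the mean without it was 4.61 and the median 0.15 TPM. The subunit Ncstn had 38.1, 33.4 and 40.9 TPM, and Aph1a had 3.27, 13.1 and 7.71 TPM. Adam10 had means of 7.14, 11.6 and 10.9 TPM and medians of 3.42, 4.91 and 8.002 TPM. Of the 7 genes of receptor turnover with a mean of 1 TPM, 3 were lower and none higher at the second step in TPM, where 30.9% of all coding genes were lower and 16% higher. Per spike-in 1 was lower, Dtx3 (log2 -1.06), and 2 were higher, Dtx2 (1.05) and Fbxw7 (0.70). Beside these, 8.91% of all coding genes were lower and 52.2% higher on that scale. Dtx3, of the Deltex family of ubiquitin ligases, had 21.8, 4.47 and 0.65 TPM. Cell S087 held 84.3% of the Dtx3 sum of cluster 3, where the mean without it was 0.105 TPM. Nedd4, another ubiquitin ligase, had 31.98, 21.3 and 11.3 TPM. Numb, which opposes Notch, had 41.7, 23.7 and 19.8 TPM and the ubiquitin ligase Itch 58.8, 52.1 and 39.6 TPM. Dtx2 had 27.4, 40.3 and 51.9 TPM, and Fbxw7, which marks the cut receptor for breakdown, had 24.8, 37.8 and 35.5 TPM.

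In the nucleus, 7 of 12 corepressor genes were lower and 1 higher at the second step in TPM, beside the same 30.9 and 16% of all coding genes. Per spike-in 1 was lower and 3 were higher, beside 8.91% lower and 52.2% higher, and Hdac1 (log2 -0.07), Kdm5a (0.31), Spen (0.33) and Tle1 (-0.05) were below 1.5-fold. Hdac1, a histone deacetylase, had 204, 86.5 and 42.2 TPM in clusters 1, 2 and 3, whereas its relative Hdac2 had 282, 415 and 342 TPM. The histone demethylase gene Kdm5a had 94.95, 63.9 and 40.4 TPM. The corepressor Spen had 8.37, 13.1 and 7.60 TPM and Tle1 39.7, 56.8 and 30.4 TPM. The median of Spen went the other way at the second step, with 3.13, 3.54 and 5.72 TPM, and 24 of 32 cells of cluster 3 lay above the median of cluster 2. Ncor1, Ctbp1 and Tle4 had overall means of 83.7, 82.1 and 22.8 TPM and differed by less than 1.5-fold at each step in TPM, whereas per spike-in Ncor1 (log2 1.17) and Tle4 (1.12) were higher at the second step. Of 6 coactivators, Snw1 had 167, 84.9 and 83.9 TPM, Kat2a 64.04, 54.6 and 34.4 TPM and Ep300 20.5, 23.6 and 26.4 TPM.

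Of 8 genes entered in the list as targets, 2 had a mean of at least 1 TPM. Whether any of them is a target of Notch in these cells was not tested. Bhlhe41, a bHLH repressor, had 10.6, 87.5 and 61.5 TPM in clusters 1, 2 and 3 and was detected in 97.8% of cells. Hey1 was detected in 23.2% of cells, with a mean of 2.96 TPM, and Hes5 in 3.62%. Heyl reached 0.1 TPM in no cell, and the same held for the ligand relative Dlk2, where a count of 0, taken as up to 3 cells of the total, allows a share of up to 2.17%.

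Some calls on these listed genes rested on 1 cell. At the first step, Adam10 went from a log2 ratio of 0.63 to 0.52 without cell S041, Fbxw7 from 0.59 to 0.51 without cell S103 and Spen from 0.59 to 0.35 without cell S053, each then below 1.5-fold. At the second step, the same held for Aph1a, from -0.70 to -0.40 without cell S049, and for Spen (-0.71 to -0.48) and Kdm5a (-0.65 to -0.52) without cell S053. In the other direction, Itch passed 1.5-fold at the second step without cell S010 (-0.68) and Bhlhe41 without cell S084 (-0.63). At the first step Rfng (0.78 without cell S102), Tle1 (0.85 without cell S107), Dtx2 (0.74 without cell S100) and Hdac2 (0.66 without cell S103) passed 1.5-fold upward, and Kdm5a (-0.69 without cell S053), Nedd4 (-0.64 without cell S036) and Dll3 (-0.64 without cell S099) downward.

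In the genome (GRCm38, GENCODE M21), Jag1 lies at chr2:137081456-137116644, Jag2 at chr12:112907819-112929776, Notch1 at chr2:26457903-26516663, Notch2 at chr3:98013527-98150361, Rbpj at chr5:53466152-53657362, Maml1 at chr11:50255634-50292311, Lfng at chr5:140607320-140615545, Hes1 at chr16:30064384-30067796 and Hes6 at chr1:91411483-91414038. Upstream sequence from RefSeq (GRCm38.p6) was matched for 8 of the 9 genes, all but Hes1. The 250 bases before each start were searched on both strands for the core of the RBPJ site, TGGGAA or its complement TTCCCA, and for the E-box CANNTG bound by bHLH proteins, a family that holds HES proteins and the oocyte factors FIGLA and SOHLH1. Of 32851 windows of that length, 21.6% held the RBPJ core and 66.2% an E-box. The core was found in Rbpj and Lfng, with 2 matches each before the first start of Rbpj and the start of Lfng, and not in these windows of Jag1, Jag2, Notch1, Notch2, Maml1 and Hes6. An E-box was found in 4 of the 8 genes, a share below that of all windows. Jag1 held 1, Rbpj and Lfng 2 each before the starts named, and Hes6 3 before its distal start and 1 before the other. The 6 bases of the Jag1 match also occur at both starts of Hes6 and in Lfng. Matches of Jag1, Hes6 (distal start) and Rbpj (first start) are shown with 12 bases on either side and the match in capitals, 5′ to 3′ on the strand of the gene.
Jag1 E-box: ccgcgtttcatgCAGCTGatctgaaaggga
Hes6 E-box: cggaagcggctgCAGCTGccaactgtcacg
Rbpj core 1: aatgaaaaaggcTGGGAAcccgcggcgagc
Rbpj core 2: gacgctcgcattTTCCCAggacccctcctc
The window of Jag1 is at chr2:137116585-137116614 (minus strand), 82 to 77 bases before the RefSeq start and within a longer 5′ UTR exon of GENCODE. That of Hes6 is at chr1:91414192-91414221 (minus strand), 171 to 166 bases before the start and outside the gene. Those of Rbpj are at chr5:53590185-53590214 and chr5:53590269-53590298 (plus strand), with the matches beginning 149 and 65 bases before its start, and both overlap a UTR exon of another transcript. A match is a description of letters in these windows and not of binding.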

How the data were processed

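Salmon was run by the authors on each library against mm10 plus the ERCC sequences, with its sequence bias model. For each gene symbol they deposited TPM, which sum to 1 total per library with mitochondrial genes and spike-ins in it, and estimated counts. The estimated counts were left by the authors without normalization, and 9.87% of all these values, with zeros and spike-ins counted, are not whole. The deposited transcript lengths were not used, since reads divided by TPM gave other effective lengths for 8 of the 9 genes, at 2 to 11 times the deposited ones in the median library, Notch2 being the exception. All 146 libraries passed the published limits on counts, mitochondrial and spike-in reads as applied here, whereas the study retained fewer with the same stated limits. The library below the limit on Ddx4 was part of the clustering and was left out after it. Depth was 4074810 to 26855273 reads on genes per kept library, and 0.1 TPM can be less than 1 read for a short transcript.

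Libraries with r over 0.95 were averaged as 1 cell. From TPM, clusters were made again with Seurat 5.3.0 in R 4.3.3, with 10 components and 20 neighbours at the lowest resolution that gave 3, and the authors' own assignment was not used here. Means, log2 ratios with a pseudocount of 1 TPM, Clopper-Pearson (exact) intervals and rank correlations (Spearman's rho) were computed in Python 3.11.15 (pandas 2.3.3, NumPy 2.4.6, SciPy 1.17.1). Of these, the log2 ratio of cluster 3 over cluster 2 and the rank correlation were tested on simulated data. No doublet caller was run, as cells were picked singly. The 9 genes and all lists were chosen with earlier results of these data known. Values are given for all 9 genes, for listed genes with a mean of at least 20 TPM or past 1.5-fold between adjacent clusters at 10 TPM or more in either, and for the 3 genes with the highest rho. A few listed genes that meet this rule are not reported here. Other listed genes named (Notch3, Notch4, Hey1, Hes5, Heyl and Dlk2) and the markers were chosen after their values were seen. Alternatives were other limits on Ddx4, scalings, pseudocounts, detection rules, clusters, filters and the leaving out of cells. Separate counting of all libraries, leaving out the cells with 2 libraries and leaving out cells with stroma, pregranulosa or blood markers were added after the data were seen.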

Additional observations from a re-analysis of the deposited data

Results flagged for a closer look

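The 1 library left out for lack of Ddx4 (0 TPM) held a signal of 2 of the 9 genes. Maml1 was at 62.8 TPM on 449 reads, above the highest kept cell (59.6 TPM), and Rbpj was at 25.1 TPM on 24.8 estimated reads. The other 7 genes were at 0. Stroma markers summed to 248 TPM in it and germ cell markers to 6.18 TPM, and their part in these levels was not tested. Of the germ cell gene Dazl it held 1 read, and its depth of 1408460 reads on genes was below that of every kept library.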

How the results depend on the processing

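Of 486 comparisons of a log2 ratio with an alternative, 451 kept both direction and side of 1.5-fold, 19 passed 1.5-fold anew, 8 no longer did and 8 reversed. No paired analysis was possible because the labels give 1 group of cells. Without the limit on Ddx4, the log2 ratio of Maml1 was -0.41 for cluster 2 over 1 and -0.45 for cluster 3 over 1, since the added cell had more Maml1 than any other. Per spike-in, cluster 3 over 2 was 0.18 for Rbpj, 1.11 for Maml1 and 0.33 for Hes6, and 3 genes were higher and 0 lower at that step, where 52.2% of all coding genes were higher and 8.91% lower, with 0 lower in cluster 3 than 1. For Maml1, cluster 3 over 2 was 0.87 with clusters from kept cells only and 0.90 with all libraries counted separately, and in each case 2 genes were higher at that step, as with a pseudocount of 0.1 TPM. With clusters from variable genes, Hes6 was at -0.63 for cluster 3 over 1, 3 genes were higher in cluster 2 than 1 and 2 were lower in cluster 3 than 1, and the cause was not tested. Also 2 were lower in cluster 3 than 1 in CPM and with the pseudocount of 0.1 TPM. Leaving out each cell gave 2 to 3 genes lower in cluster 3 than 2 and 4 to 5 higher in cluster 3 than 1, while the other counts stayed at their values of 5, 0, 1 and 1. Without the 7 cells taken to have 2 libraries, no call on the ratio changed but that of Jag2 for cluster 3 over 2 (-0.61). Since no cell is tied to an animal, no error over animals could be attached to any level.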
